A study of Mus musculus with 32 samples.

Results

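The enzymes that modify odorants and other foreign compounds were followed as 156 of the 19,938 genes measured in olfactory cells of mice. Within the enzyme families listed here the genes were taken by symbol, from probe sets annotated to exactly 1 gene; the families and lists themselves were picked with earlier results of these data known. They comprised 69 cytochrome P450 genes of families Cyp1 to Cyp4, 5 flavin monooxygenases (Fmo), 21 aldehyde dehydrogenases (Aldh), 16 carboxylesterases (Ces), 11 glucuronosyltransferases (Ugt), 18 glutathione transferases (Gst) and 16 sulfotransferases (Sult). For the 3 genes with more than 1 probe set, the 1 with the brightest average signal was used. Cyp2a5, Ugt2a1 and Ugt2a2 had only probe sets annotated to several genes and have no value here, and 20 such shared probe sets touched these families.

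All cells came from adult S100a5-tauGFP mice, so every group, controls included, carried a reporter that marks cells with activity of S100a5, a gene of mature olfactory sensory neurons. Mice were kept singly in an olfactometer for 26 h in clean air and then for 14 h with stimulus pulses of 10 s every 5 min, where the stimulus was vehicle, eugenol (a phenolic odorant of clove) or muscone (a macrocyclic musk ketone). After dissociation, a cell sorter divided the cells into a GFP-positive and a GFP-negative fraction, and their RNA was hybridised to Affymetrix arrays. The 8 groups of 4 arrays were vehicle GFP-positive, vehicle GFP-negative, odorant GFP-positive and odorant GFP-negative cells, in 4 eugenol and in 4 muscone experiments. Each experiment, a set of 4 arrays sharing a number in the titles, gave 1 array to each of its groups. The labels do not say which arrays came from separate animals, so p-values measure the spread between arrays within experiments, and 4 arrays per group limit the precision of every value. In sorted bulk RNA, fewer cells of a type and less RNA per cell cannot be told apart.

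The olfactory mucosa is rich in such enzymes, many of them made by the sustentacular cells that surround the neurons and by Bowman's glands beneath. P450s, flavin monooxygenases, aldehyde dehydrogenases and carboxylesterases oxidise or hydrolyse small lipophilic molecules. Glucuronosyltransferases, glutathione transferases and sulfotransferases then attach glucuronic acid, glutathione or sulfate, which makes the products easier to export. The mucosa is known for high levels of Cyp2g1 and Cyp1a2, and these enzymes can alter or remove an inhaled odorant.

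The sort and the libraries set the frame for all values. Under vehicle, S100a5 was higher in GFP-positive than in GFP-negative cells by 0.43 ± 0.15 (log2 difference ± SE; limma adjusted p = 0.0171) and the neuronal marker Omp by 0.27 ± 0.07 (adjusted p = 0.00114), each in 8 of 8 experiments. With centring on mature neuron genes the values were 0.026 (adjusted p = 0.892) for S100a5 and −0.13 for Omp, and without the experiment block neither passed (adjusted p = 0.916 for each). Omp is 1 of the 15 genes used for this centring, and all 15 were higher in GFP-positive cells. The centring therefore lowers every fraction difference by construction and cannot serve as a check of the sort. The S100a5 call was also lost without eugenol experiment 1 (0.34, adjusted p = 0.0630), without muscone experiment 4 (0.38, adjusted p = 0.0579) and without eugenol experiment 1 and muscone experiment 3 together (0.39, adjusted p = 0.0557). Mean Omp signals were 13.98 and 13.71 (log2 intensity). Of the marker lists, 15 of 15 mature neuron genes were higher in GFP-positive cells, 11 of 11 immune genes, 6 of 9 sustentacular genes and 5 of 10 Bowman's gland genes were lower, and 0 genes of these last 3 lists were higher. Respiratory ciliated genes were also higher, 6 of 7 (median 0.60, beside 0.51 for mature neuron genes). Ensheathing glia had 2 higher and 1 lower of 6, endothelial genes 1 and 3 of 6, and immature neuron genes 1 and 6 of 10. Lower, with 0 higher, were 8 of 8 microvillous, 7 of 7 basal progenitor, 4 of 5 horizontal basal, 2 of 2 erythroid and 3 of 6 fibroblast genes. Array medians ran from 6.72 to 8.81 (log2 intensity) between experiments, so differences were taken within experiments. A pair of GFP-positive arrays stood apart. Between the vehicle fractions, the median difference of the sustentacular list was +0.27 in eugenol experiment 1, against −1.87 to −0.33 in the other 7, and that of the Bowman's gland list +0.25 against −1.90 to −0.43. In muscone experiment 3, Cyp2g1 was 1.47 higher in GFP-positive than GFP-negative cells after muscone, against −0.50 to 0.28 in the other 3 muscone experiments. Results are therefore also given without these 2 experiments, a choice made after seeing the data and in part on an enzyme gene itself. A gain of lower enzyme genes without them follows in part from that choice.

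Of the 156 enzyme genes, 99 had a mean signal above the dim range, set at 6.19 (log2 intensity), the 95th percentile of 167 vomeronasal receptor genes, and 57 did not. In all 8 groups, 88 enzyme genes lay above the dim range of the group, and 47 did so in none.

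Under vehicle, GFP-positive cells had lower signals of a set of enzymes led by Cyp4f18, Sult1e1, Gstp1, Aldh9a1, Ces2g and Aldh2, and higher signals of others, most by small amounts, led by Cyp2u1. In all, 58 enzyme genes were higher in GFP-positive cells, 26 were lower and 72 did not pass an adjusted p of 0.05. Over all genes tested, 45.1% were higher and 21.9% lower (67% in either direction); the shares among enzyme genes were 37.2% and 16.7%, both below those of all genes. The median difference was 0.15 over the enzyme genes and 0.14 over all genes. The direction of the small differences depended on the scaling: with each array centred on mature neuron genes, every vehicle difference moved by −0.40, and 1 enzyme gene was then higher and 73 were lower (0.641% and 46.8%, beside 4.75% and 49.4% of all genes). These neuron genes were themselves higher in GFP-positive cells, so the downward move is built into this centring. Past the threshold in the deposited values and in all 3 other scalings were 1 higher gene, Cyp2u1, and 22 lower genes, beside 4.75% and 18.3% of all genes. Under all 16 alternatives run on this comparison, where a gene was tested, 0 higher and 6 lower enzyme genes kept their call, Cyp4f18, Sult1e1, Gstp1, Aldh9a1, Ces2g and Cyp2r1, beside 1.71% and 6.66% of all genes. Of these alternatives, the fit without the experiment block leaves the level differences between experiments in its error. Under the others, 1 higher gene, Cyp2u1, and 19 lower enzyme genes kept their call, beside 4.75% and 17.9% of all genes. Among the 99 enzyme genes above the dim range, 31 were higher and 24 lower, beside 7776 and 4214 of all 17,300 genes above it. Among the 57 dim ones, 27 were higher and 2 lower, beside 1214 and 161 of all 2638 dim genes. The dim enzyme genes had a median difference of 0.19, and the vomeronasal receptor genes, 66 higher and 1 lower of 167, had a median of 0.17.

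**Figure D1:**
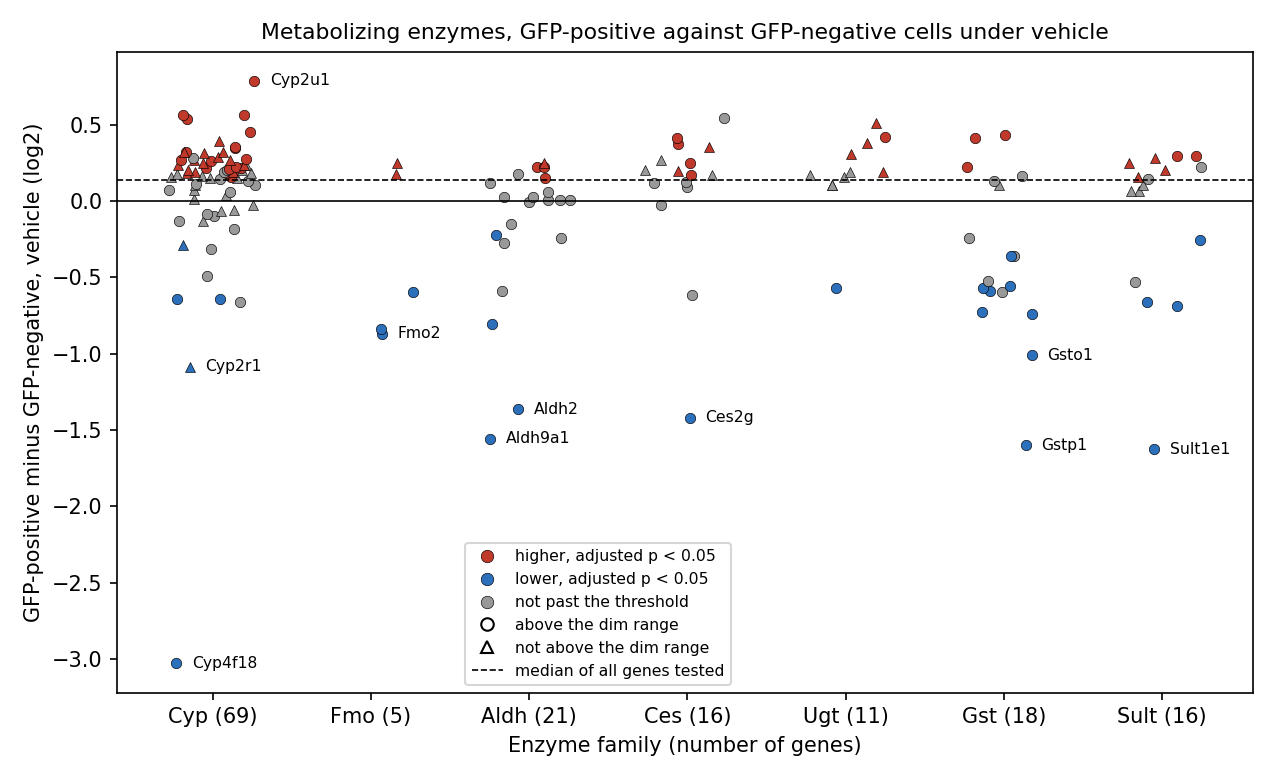
Each point is 1 enzyme gene, placed by family (horizontal axis) and by its fitted log2 difference between GFP-positive and GFP-negative cells under vehicle (vertical axis). Red and blue points passed an adjusted p of 0.05, triangles did not exceed the dim range, and the dashed line is the median of all genes, 0.14. Falls reach −3.03 while rises end at 0.79, and with arrays centred on mature neuron genes all points would move down by 0.40, leaving 1 gene called higher.

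By family, the counts stand beside the 45.1% of all genes that were higher and the 21.9% that were lower. Among the P450s, 32 of 69 (46.4%) were higher, near the share of all genes, and 5 (7.25%) lower, of which 18 and 3 were above the dim range, but with centring on mature neuron genes Cyp2u1 alone of all enzyme genes was called higher. Among glutathione transferases, 8 of 18 (44.4%) were lower and 3 (16.7%) higher (median −0.44), and 6 of these 8, Gstp1, Gsto1, Gstm5, Gstm7, Gstp3 and Gstt2, stayed lower under the 3 scalings. Of the 5 flavin monooxygenases, Fmo1, Fmo2 and Fmo5 were lower under every scaling, and the 2 higher ones were dim. Aldehyde dehydrogenases were 4 higher and 4 lower of 21, carboxylesterases 6 and 1 of 16, glucuronosyltransferases 5 and 1 of 11, and sulfotransferases 6 and 4 of 16. Above the dim range the counts in the same order were 3 and 4 of 20, 4 and 1 of 11, 1 and 1 of 2, and 2 and 4 of 9. These counts were not tested between families.

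Cyp4f18, a P450 known for hydroxylating leukotriene B4 in white blood cells, had the largest difference of the enzyme genes. Its signal ran from 5.77 through a median of 6.55 to 7.45 (log2 intensity) on the 8 vehicle GFP-positive arrays and from 7.90 through 10.10 to 10.35 on the 8 GFP-negative arrays. The ranges did not overlap, and the GFP-negative array was the higher one in 8 of 8 experiments. The difference was −3.03 ± 0.20 (adjusted p = 2.57e-11), or 8.16-fold lower in GFP-positive cells. The immune marker list, 11 genes, had a median difference of −3.50, between −3.91 and −2.10 in single experiments, and its mean signal ran from 7.62 to 8.81 in vehicle GFP-positive and from 10.12 to 11.36 in GFP-negative arrays. The part of immune cells in the Cyp4f18 difference was not tested. Cyp4f16, of the same subfamily, was lower by a smaller amount, −0.64 ± 0.08 (adjusted p = 8.15e-07).

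Cyp2u1, a P450 known to hydroxylate long-chain fatty acids, was the enzyme gene with the largest rise. Its signals overlapped between fractions because experiments differed in level, from 7.48 through 9.71 to 10.33 in GFP-positive and from 6.63 through 8.85 to 9.88 in GFP-negative vehicle arrays. Within experiments the GFP-positive array was higher in 8 of 8, by 0.45 to 1.42. The difference was 0.79 ± 0.07 (adjusted p = 3.80e-09), or 1.73-fold. It passed the threshold in each alternative except the fit without the experiment block (adjusted p = 0.449). After odorant the same fraction difference was 0.94 ± 0.10 with eugenol and 1.23 ± 0.10 with muscone.

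Other P450s that rose did so by less. Cyp2j12 was higher by 0.54 ± 0.10 (adjusted p = 5.73e-05) and Cyp2d40 by 0.45 ± 0.10 (adjusted p = 7.48e-04), in 8 of 8 experiments each. Cyp2d11 (0.39) and Cyp2c54 (0.32) were also higher in 8 of 8, but both were dim and turned to −0.0105 and −0.079 with centring on mature neuron genes. Cyp2r1, which hydroxylates vitamin D, was lower by 1.08 (fitted difference −1.08 ± 0.15, adjusted p = 1.45e-06), with a mean of 4.68 in GFP-positive and 5.76 in GFP-negative cells, both below 6.19.

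Aldh9a1, which oxidises aminoaldehydes on the routes to GABA and carnitine, ran from 6.999 through 8.03 to 8.82 in vehicle GFP-positive and from 8.08 through 9.79 to 10.42 in GFP-negative arrays. The ranges overlapped, yet every experiment had the GFP-positive array below its partner. The difference was −1.56 ± 0.16 (adjusted p = 2.86e-08). Aldh2, the mitochondrial acetaldehyde dehydrogenase, was lower by 1.36 (−1.36 ± 0.28, adjusted p = 2.83e-04) in 7 of 8 experiments, with eugenol experiment 1 at +0.24. Aldh1l1, a folate enzyme, was lower in 8 of 8 (−0.80 ± 0.18, adjusted p = 6.20e-04). The retinaldehyde dehydrogenases Aldh1a2 and Aldh1a3 were at 0.0064 ± 0.0776 and 0.027 ± 0.072, neither past the threshold, and moved to −0.40 and −0.37 with centring on mature neuron genes. Aldh3a1 was at −0.59 ± 0.27 (adjusted p = 0.0624).

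Gstp1, a pi-class glutathione transferase, ran from 6.96 through 8.24 to 9.75 in vehicle GFP-positive and from 9.13 through 10.07 to 10.89 in GFP-negative arrays. GFP-positive cells were lower in 8 of 8 experiments, least in eugenol experiment 1 (−0.25) and most in muscone experiment 4 (−2.40). The fitted difference was −1.60 ± 0.22 (adjusted p = 1.49e-06). The omega-class pair moved apart: Gsto1 was lower (−1.01 ± 0.29, adjusted p = 0.00477) and Gsto2 higher (0.43 ± 0.09, adjusted p = 2.66e-04; 0.032 with centring on mature neuron genes). Of the theta class, Gstt2 was lower (−0.55 ± 0.09, adjusted p = 1.47e-05), and Gstt1 was at 0.16 ± 0.10 (adjusted p = 0.149; −0.24 with that centring). Gstm1 of the mu class was lower with an adjusted p of 0.0484 (−0.57 ± 0.25), and Gstm2 was at −0.24 ± 0.22 (adjusted p = 0.324). Mu-class and pi-class genes have near-identical relatives, so their probe sets may share signal.

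Ces2g, a carboxylesterase, was lower in GFP-positive cells in 8 of 8 experiments, by 0.91 to 2.19, with a fitted difference of −1.42 ± 0.18 (adjusted p = 6.92e-07). Ces5a (0.41 ± 0.06, adjusted p = 1.47e-06) and Ces4a (0.37 ± 0.06, adjusted p = 8.75e-06) were higher in 8 of 8, but moved to 0.013 and −0.027 with centring on mature neuron genes. Ces1d was at −0.61 ± 0.28 (adjusted p = 0.0601). Among the flavin monooxygenases, which oxidise nitrogen and sulfur atoms, Fmo5 was lower in 8 of 8 (−0.59 ± 0.12, adjusted p = 2.68e-04), and Fmo2 (−0.87 ± 0.28, adjusted p = 0.0103) and Fmo1 (−0.84 ± 0.30, adjusted p = 0.0176) in 6 of 8. Of the glucuronosyltransferase family, Ugt8a, which makes galactosylceramide, was lower (−0.57 ± 0.21, adjusted p = 0.0216). Ugt2a3 was higher (0.31 ± 0.10, adjusted p = 0.00949) in the dim range and moved to −0.092 with centring on mature neuron genes.

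The sulfotransferases Sult1d1, which sulfates catecholamines, and Sult1e1, which sulfates estrogens, stand next to each other among the enzyme genes of chromosome 5 and moved in opposite directions. Sult1d1 ran from 12.71 through 13.67 to 14.03 in vehicle GFP-positive and from 12.26 through 13.38 to 13.94 in GFP-negative arrays, with the GFP-positive array the higher in 8 of 8 experiments. Its difference was 0.30 ± 0.05 (adjusted p = 9.87e-06) and turned to −0.10 with centring on mature neuron genes. Sult1e1 ran from 6.14 through 7.10 to 9.78 and from 8.14 through 9.26 to 10.07. It was lower in 7 of 8 experiments and 0.17 higher in eugenol experiment 1, and its difference was −1.63 ± 0.33 (adjusted p = 1.92e-04), past the threshold under all 3 scalings. Sult2b1 was also lower (−0.66 ± 0.13, adjusted p = 1.66e-04). Sult4a1, a brain sulfotransferase, was higher (0.29 ± 0.06, adjusted p = 3.04e-04), as was the dim Sult6b2 (0.28 ± 0.08, adjusted p = 0.00463), and both turned to −0.11 and −0.12 with the same centring.

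The start regions of the opposed neighbours are shown beside those of Cyp4f18, the largest fall, and Cyp1a2, a gene that varied widely between experiments. RefSeq's promoter table (GRCm38.p6) held windows of 300 bases, 250 before and 50 after the start, for 125 of the 156 genes. The sequences read 5′ to 3′ on the gene's strand, and capitals mark matches, on either strand, to the TATA-type letters TATAA, to CCCNNGGG (the letters of an Ebf site, Ebf factors being regulators of olfactory neuron genes) or to GCGTG (the core bound by the aryl hydrocarbon receptor); adjoining or overlapping matches run together.
Sult1d1 (chr5:87568957-87569256, minus strand): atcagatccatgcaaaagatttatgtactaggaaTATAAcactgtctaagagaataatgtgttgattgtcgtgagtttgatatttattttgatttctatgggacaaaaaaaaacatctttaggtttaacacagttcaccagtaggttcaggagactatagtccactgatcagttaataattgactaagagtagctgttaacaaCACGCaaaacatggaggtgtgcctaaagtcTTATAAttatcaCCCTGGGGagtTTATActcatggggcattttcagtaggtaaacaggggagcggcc
Sult1e1 (chr5:87591562-87591861, minus strand): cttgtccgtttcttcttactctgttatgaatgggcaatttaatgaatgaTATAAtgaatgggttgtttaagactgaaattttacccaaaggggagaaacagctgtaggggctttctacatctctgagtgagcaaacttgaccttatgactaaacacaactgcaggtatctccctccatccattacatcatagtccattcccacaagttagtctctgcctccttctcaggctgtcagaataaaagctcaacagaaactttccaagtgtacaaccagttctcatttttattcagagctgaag
Cyp4f18 (chr8:72009577-72009876, minus strand): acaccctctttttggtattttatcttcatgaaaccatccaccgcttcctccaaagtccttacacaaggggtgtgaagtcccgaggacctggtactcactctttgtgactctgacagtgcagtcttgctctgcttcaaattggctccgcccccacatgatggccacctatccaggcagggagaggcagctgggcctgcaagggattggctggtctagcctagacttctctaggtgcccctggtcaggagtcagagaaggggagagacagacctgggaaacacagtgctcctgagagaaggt
Cyp1a2 (chr9:57683606-57683905, minus strand): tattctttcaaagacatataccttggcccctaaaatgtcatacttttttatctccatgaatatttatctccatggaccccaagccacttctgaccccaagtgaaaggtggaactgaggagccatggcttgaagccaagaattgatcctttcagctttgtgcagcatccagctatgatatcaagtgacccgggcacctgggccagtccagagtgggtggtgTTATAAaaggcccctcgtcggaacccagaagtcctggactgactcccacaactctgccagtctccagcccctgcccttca
Over the 146 windows of the enzyme genes, TATAA was found in 45.2%, CCCNNGGG in 8.22% and GCGTG in 20.5%, beside 24.9%, 13.7% and 32.4% of all 32,851 windows in the table. The window of Sult1d1 held all 3 motifs, that of Sult1e1 TATAA alone, that of Cyp1a2 TATAA within 30 bases before the start, and that of Cyp4f18 none. These are matches of letters only.

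Other enzyme genes also lie side by side on the chromosomes; these clusters were named after their values were seen, and their counts stand beside 45.1% higher and 21.9% lower of all genes. The clusters given are a selection. Of 10 genes from Cyp2d22 to Cyp2d26 on chromosome 15, 7 were higher and 0 lower, and 5 of the 10 were above the dim range. Of 5 genes from Cyp3a57 to Cyp3a25 on chromosome 5, 4 were higher and 0 lower, with 0 above the dim range. From Cyp4f39 to Cyp4f41-ps on chromosome 17, 5 of 8 were higher and 1 lower, and from Cyp4x1 to Cyp4b1 on chromosome 4, 4 of 7 and 0. With centring on mature neuron genes, no gene of these clusters was called higher. Of 13 genes from Cyp2c55 to Aldh18a1 on chromosome 19, 6 (46.2%, near the share of all genes) were higher and 0 lower, and 3 of the 13 were above the dim range. Of 7 genes from Gstm5 to Gstm4 on chromosome 3, 0 were higher and 3 lower. The 11 genes from Cyp2s1 to Cyp2t4 on chromosome 7, which include Cyp2g1 and Cyp2f2, had 2 higher and 1 lower, from −0.64 to 0.35. Probe sets of such close relatives may share signal, and this was not tested.

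The P450s for which the mucosa is best known did not differ between fractions past the threshold, and their experiments ran both ways. Cyp2g1, a P450 of the olfactory mucosa, was at 14.21 (log2 intensity) in the vehicle GFP-positive array of eugenol experiment 1 and between 11.98 and 13.17 in the other 7; in GFP-negative arrays it ran from 12.17 to 13.17. The fraction difference was +1.37 in that experiment and −1.19 in eugenol experiment 2, higher in 4 of 8, with a fitted value of 0.07 ± 0.25 (adjusted p = 0.805). Cyp1a2, which oxidises aromatic amines and caffeine, showed the same order: 12.17 in that array, 8.85 to 10.35 in the other 7 and 9.34 to 10.43 in GFP-negative arrays. Its difference was +2.49 in eugenol experiment 1 and −1.27 in eugenol experiment 2, and 0.21 ± 0.33 (adjusted p = 0.593) in the fit. Aldh1a1 (+1.36 in eugenol experiment 1; −0.28 ± 0.33, adjusted p = 0.457), Aldh1a7 (0.18 ± 0.29, adjusted p = 0.604) and Sult1c1 (+1.22; −0.53 ± 0.28, adjusted p = 0.0921) also had their highest difference there. Cyp2f2, which activates naphthalene, was lower in 6 of 8 experiments (−0.64 ± 0.24, adjusted p = 0.0222).

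**Figure D2:**
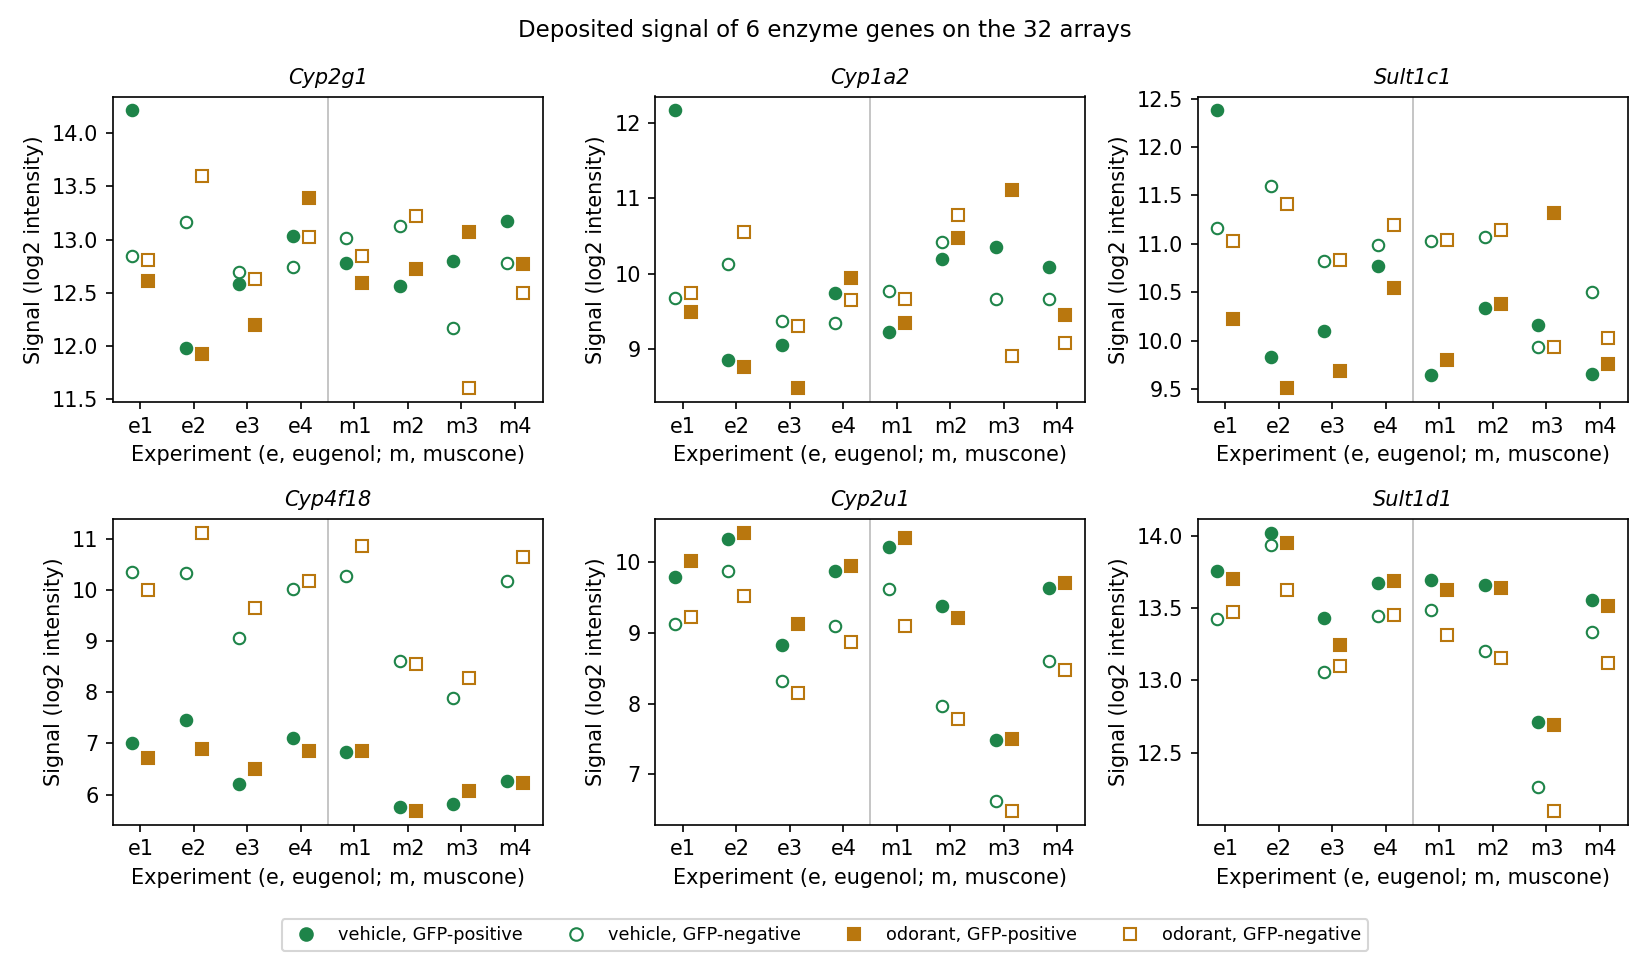
Deposited signal (vertical axis, log2 intensity) of 6 enzyme genes on each of the 32 arrays, by experiment (horizontal axis; e1 to e4 eugenol, m1 to m4 muscone); filled symbols are GFP-positive and open symbols GFP-negative cells, circles vehicle and squares odorant. Cyp4f18 is lower in GFP-positive cells in all 8 experiments and Cyp2u1 and Sult1d1 are higher (Sult1d1 not with centring on mature neuron genes), while Cyp2g1, Cyp1a2 and Sult1c1 peak in the vehicle GFP-positive array of eugenol experiment 1.

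Other enzyme genes also had their highest values in this experiment. Of the 156, 50 (32.1%) had their highest vehicle difference in eugenol experiment 1, beside 8.31% of all genes, and of the 99 above the dim range 42 (42.4%) did. There 15 enzyme genes were higher in GFP-positive cells by more than 1 (log2) and 3 lower by more than 1, beside 2.75% and 5.79% of all genes. In eugenol experiment 2 the counts were 0 and 26 (1.41% and 6.31% of all genes), and in muscone experiment 1 they were 0 and 23 (1.82% and 8.48%). The sustentacular and Bowman's gland lists had medians of +0.27 and +0.25 in eugenol experiment 1, −1.87 and −1.54 in eugenol experiment 2 and −1.66 and −1.90 in muscone experiment 1. Elsewhere they lay between −1.30 and −0.33 and between −1.49 and −0.43. They were not alone in being highest in eugenol experiment 1. The microvillous list was at −0.86 there, against −2.76 to −1.39 elsewhere. The lists of other oxidoreductases and hydrolases (0.31) and other conjugating enzymes (0.073), described below, also peaked there. The mean signal of the 9 sustentacular markers ran from 9.18 to 11.48 in vehicle GFP-positive and from 9.82 to 11.07 in GFP-negative arrays, and that of the 10 Bowman's gland markers from 8.29 to 11.01 and from 8.95 to 11.06. All 19 of these markers were above the dim range, and their part in the enzyme values was not tested.

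Without eugenol experiment 1 and muscone experiment 3, 39 enzyme genes were higher and 40 lower under vehicle, beside 41.7% and 21.4% of all genes; 25 of the 26 lower genes remained lower and 37 of the higher ones remained higher. The 15 genes newly lower included Sult1c1 (−0.95, adjusted p = 2.48e-04) and Aldh1a1 (−0.66, adjusted p = 0.0200), with Aldh3a1, Ces1d and Gstm2, and further Aldh6a1, Cyp2j6, Cyp2j9, Cyp3a13, Cyp4a12a, Cyp4a12b, Cyp4b1, Gsta3, Gsta4 and Gstm3. Cyp2g1 and Cyp1a2 passed the threshold in neither setting. Both experiments were left out after high values in them were seen, so the newly lower genes are no separate result.

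**Figure D3:**
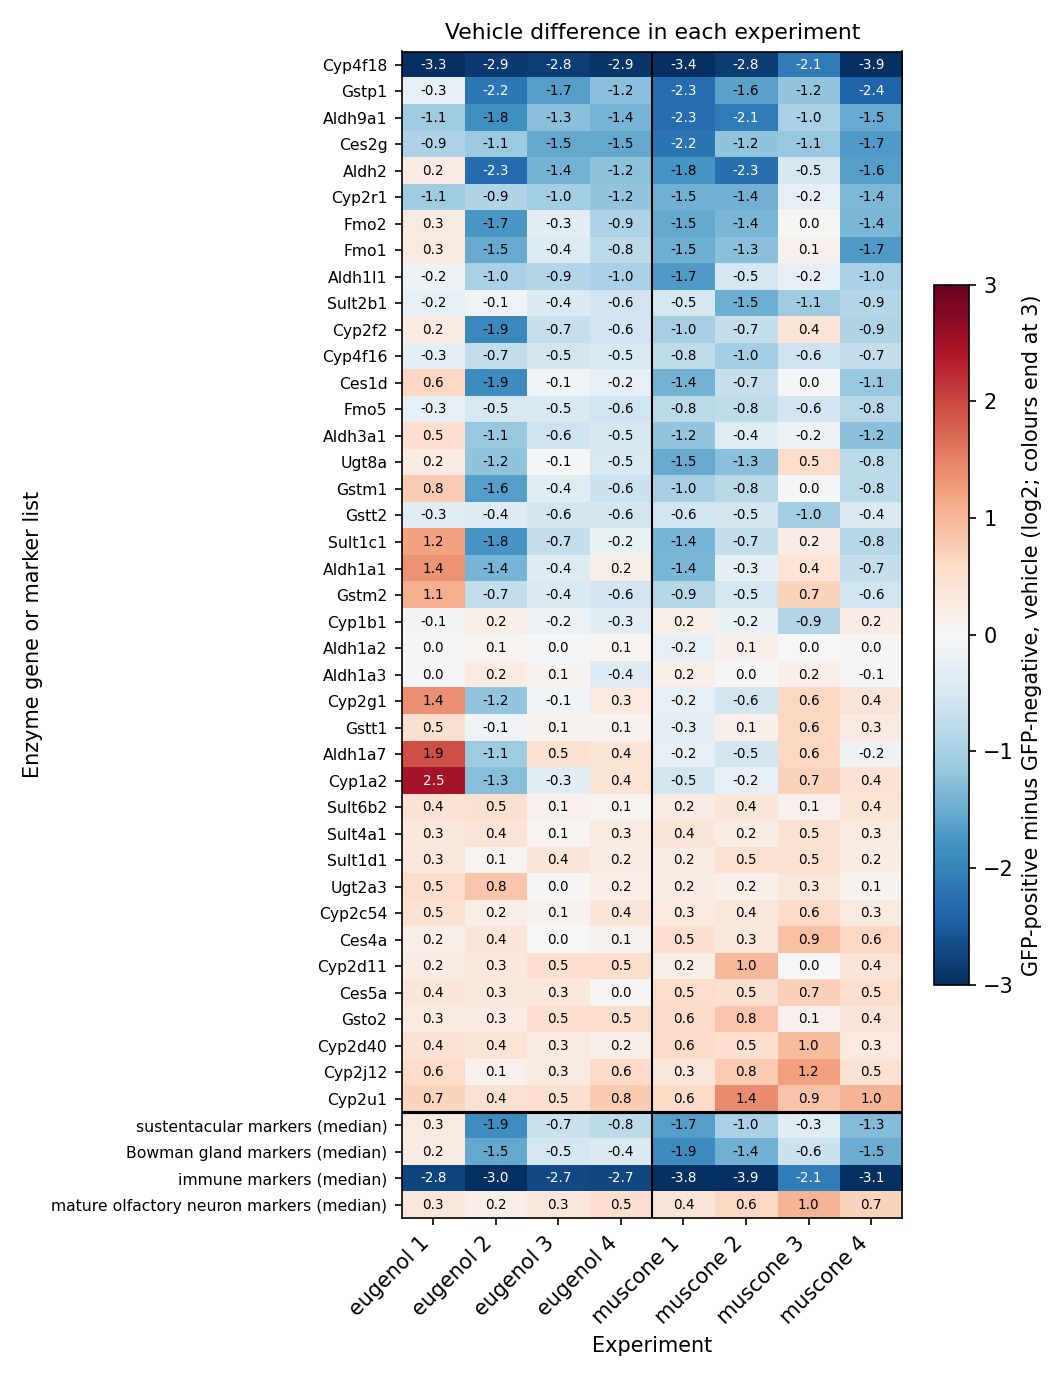
Each cell gives the log2 difference between the GFP-positive and GFP-negative vehicle arrays of 1 experiment (columns) for 1 named enzyme gene (rows, ordered by fitted difference) or, below the line, the median of a marker list; blue is lower and red higher in GFP-positive cells, and colours end at 3. Cyp4f18 is lower in every column, from −3.92 to −2.09, whereas Cyp2g1 and Cyp1a2 run from −1.19 and −1.27 in eugenol experiment 2 to 1.37 and 2.49 in eugenol experiment 1, where the sustentacular and Bowman's gland medians are also highest; with centring on mature neuron genes the rows under about 0.4 among the higher genes turn negative.

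Over the 8 groups, Cyp2g1 kept within a narrow band of means, which overlapped in their spread. Its mean signal (log2 intensity ± SD, n = 4) in GFP-positive cells was 12.95 ± 0.95 with vehicle and 12.53 ± 0.64 with eugenol in the eugenol experiments, and 12.83 ± 0.25 with vehicle and 12.79 ± 0.20 with muscone in the muscone experiments. In GFP-negative cells the means in the same order were 12.86 ± 0.21, 13.01 ± 0.42, 12.77 ± 0.43 and 12.54 ± 0.69. Cyp4f18 divided the groups by fraction. Its 4 GFP-positive means were 6.95 ± 0.52, 6.74 ± 0.18, 6.17 ± 0.50 and 6.21 ± 0.48, and its 4 GFP-negative means were 9.94 ± 0.61, 10.23 ± 0.63, 9.24 ± 1.17 and 9.58 ± 1.35. Cyp2u1 had GFP-positive means of 9.71 ± 0.63, 9.88 ± 0.54, 9.18 ± 1.19 and 9.19 ± 1.22 and GFP-negative means of 9.11 ± 0.64, 8.94 ± 0.59, 8.21 ± 1.25 and 7.96 ± 1.12. These SDs include the differences in array level between experiments, so the groups of Cyp2u1 overlap although its fractions differ within every experiment.

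The fraction difference was also measured separately in each set of experiments and after odorant. Under vehicle, 12 enzyme genes were higher and 12 lower in the eugenol experiments (21.1% and 15.5% of all genes, 36.6% in either direction), and 46 and 23 in the muscone experiments (41.5% and 20.6%, 62.1% in either direction). After eugenol 23 were higher and 34 lower (28.3% and 18.3% of all genes, 46.6% in either direction), and after muscone 24 and 21 (35.1% and 21.5%, 56.6% in either direction). In all 4 of these comparisons, 6 enzyme genes were higher, Ces5a, Cyp2c23, Cyp2u1, Gsto2, Sult1d1 and Sult4a1, and 11 were lower, Aldh2, Aldh9a1, Ces2g, Cyp2r1, Cyp4f16, Cyp4f18, Fmo5, Gstm5, Gstp1, Gstt2 and Sult1e1. These shares, 3.85% and 7.05%, lay below the 17.1% and 13.7% of all genes. With centring on mature neuron genes, 0 enzyme genes were called higher in the vehicle comparison of the eugenol experiments or of the muscone experiments, so none of the 6 was then higher in all 4. In the fit, no enzyme gene had a vehicle difference that differed between eugenol and muscone experiments past the threshold (0% of all genes were called). The smallest limma adjusted p was 0.177 for Ces4a, and 10 enzyme genes and 3104 of all genes were at an unadjusted p under 0.05. Some alternatives did call enzyme genes, with counts for centring on mature neuron genes and for array weights given at the end. Ces4a and Ces2e were each called in 1 of 16 alternatives (limma adjusted p = 0.0441 and 0.0422). Ces4a was higher by 0.17 ± 0.08 in the eugenol and by 0.58 ± 0.08 in the muscone experiments.

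After eugenol, Cyp2f2 was lower in GFP-positive cells in 4 of 4 experiments (−1.27 ± 0.34, adjusted p = 0.00397), as were Fmo1 (−1.49 ± 0.42, adjusted p = 0.00655) and Sult1c1 (−1.13 ± 0.39, adjusted p = 0.0219). Cyp2g1 was at −0.48 ± 0.35 (adjusted p = 0.262) and Cyp1a2 at −0.64 ± 0.47 (adjusted p = 0.265). After muscone, Cyp1a2 was at −0.32, −0.30, 2.21 and 0.37 in muscone experiments 1 to 4, and Aldh1a1 at −1.57, −0.29, 1.85 and −0.65. Muscone experiment 3 was the high one for both. There 22 enzyme genes were higher in GFP-positive cells by more than 1, beside 5.86% of all genes, against 1 to 3 enzyme genes in the other 3 experiments. Without eugenol experiment 1 and muscone experiment 3, 24 were higher and 44 lower after muscone (35.5% and 21.5% of all genes), and the 23 genes newly lower included Aldh1a1, Sult1c1, Cyp2f2, Fmo1, Fmo2 and Gstm1. Of the 99 enzyme genes above the dim range, 57 (57.6%, beside 31.2% of all genes) had their highest difference after muscone in muscone experiment 3. Leaving it out therefore favours lower calls by construction.

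The effect of each odorant was tested within each fraction, to ask whether enzyme signals of a fraction differed after exposure to an odorant. Cells were sorted by GFP after exposure. A change in which cells are GFP-positive therefore cannot be told apart from a change within cells. No enzyme gene passed the threshold for eugenol or muscone in either fraction. Over all genes, 0% were called for eugenol in GFP-positive cells, 0% for eugenol in GFP-negative cells, 0.00502% for muscone in GFP-positive cells and 0% for muscone in GFP-negative cells. At an unadjusted p under 0.05 the enzyme genes numbered 14, 3, 4 and 8 of 156, or 8.97%, 1.92%, 2.56% and 5.13%, beside 4.63%, 2.34%, 3.74% and 8.55% of all genes. The 95% interval of the odorant effect lay within ±1 (log2) for 128, 147, 139 and 148 enzyme genes in the same order, so larger effects of the remaining genes were not excluded by these arrays.

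In GFP-positive cells, the largest eugenol value was that of Sult1e1. Eugenol minus vehicle was −2.68, −0.60, −0.38 and −0.83 in experiments 1 to 4, and −1.12 ± 0.46 in the fit (adjusted p = 0.9995). All 4 values were below 0, and experiment 1 was the most distant; without it the value was −0.60. Gsto1 had −2.76, −0.011, −0.011 and −1.25 (fit −1.01 ± 0.41, adjusted p = 0.9995). Cyp2c65 (−0.46 ± 0.16) and Cyp3a11 (−0.26 ± 0.09) had the smallest unadjusted p beside these, 0.00793 and 0.00648. In experiment 1 alone, 34 enzyme genes were lower after eugenol by more than 1, beside 2.71% of all genes, with Aldh1a1 at −2.996 and Cyp1a2 at −2.68; in experiments 2, 3 and 4 the numbers were 5, 0 and 3. The number of enzyme genes at an unadjusted p under 0.05, 14 in the fit, moved in both directions with the arrays used. It was 2 (1.28%, beside 3.85% of all genes) without eugenol experiment 1 and 3 (1.92%, beside 5.08%) without that and muscone experiment 3. It was 28 (17.9%, beside 5.31%) without eugenol experiment 3, 21 (13.5%, beside 10.7%) without eugenol experiment 2 and 27 (17.3%, beside 7.06%) without muscone experiment 3. Array weights gave 38 (24.4%, beside 14.1%), centring on mature neuron genes 23 (14.7%, beside 2.14%) and the fit without the block 0. In each of these, 0 enzyme genes passed the adjusted threshold. The vehicle GFP-positive array of eugenol experiment 1 is also the one in which sustentacular and Bowman's gland markers stood highest against the GFP-negative partner. Its part in the eugenol values was not tested.

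In GFP-negative cells, the eugenol effects of Cyp2g1 and Aldh1a1 were 0.15 (95% interval −0.58 to 0.88) and 0.0090 (−0.95 to 0.97), and in GFP-positive cells −0.42 (−1.15 to 0.31) and −0.90 (−1.86 to 0.064). The GFP-negative genes with the smallest p were Cyp2c23 (−0.35 ± 0.12, below 0 in 4 of 4 experiments), Cyp3a11 (−0.20 ± 0.09), Ces1b (0.22 ± 0.10) and Cyp4x1 (−0.14 ± 0.07). Their limma adjusted p was 0.9999 each.

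With muscone, Cyp2g1 was at −0.038 (−0.77 to 0.69) in GFP-positive and −0.23 (−0.96 to 0.50) in GFP-negative cells. The smallest p in GFP-positive cells belonged to Ces4a (−0.21 ± 0.08), Sult1a1 (0.28 ± 0.12), Cyp2d37-ps (−0.26 ± 0.12) and Fmo4 (−0.28 ± 0.13), each with an adjusted p of 0.9999. By size, the largest muscone value in GFP-positive cells was that of Cyp4a12b (1.06), which did not pass the threshold either. Of the GFP-negative genes, Aldh5a1, the succinic semialdehyde dehydrogenase, was lower in 4 of 4 experiments, at −0.18, −0.18, −0.28 and −0.29, and −0.23 ± 0.08 in the fit (adjusted p = 0.431). Ugt2b36 (0.34 ± 0.12, adjusted p = 0.456) and Cyp2e1 (0.35 ± 0.13, adjusted p = 0.461), an ethanol-oxidising P450, were above 0 in 4 of 4, and Aldh3b3 (0.28 ± 0.11, adjusted p = 0.516) in 3 of 4. In muscone experiment 3, 12 enzyme genes were higher after muscone in GFP-positive cells by more than 1, beside 2.16% of all genes, against 0 to 3 in the other 3 experiments.

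**Figure D4:**
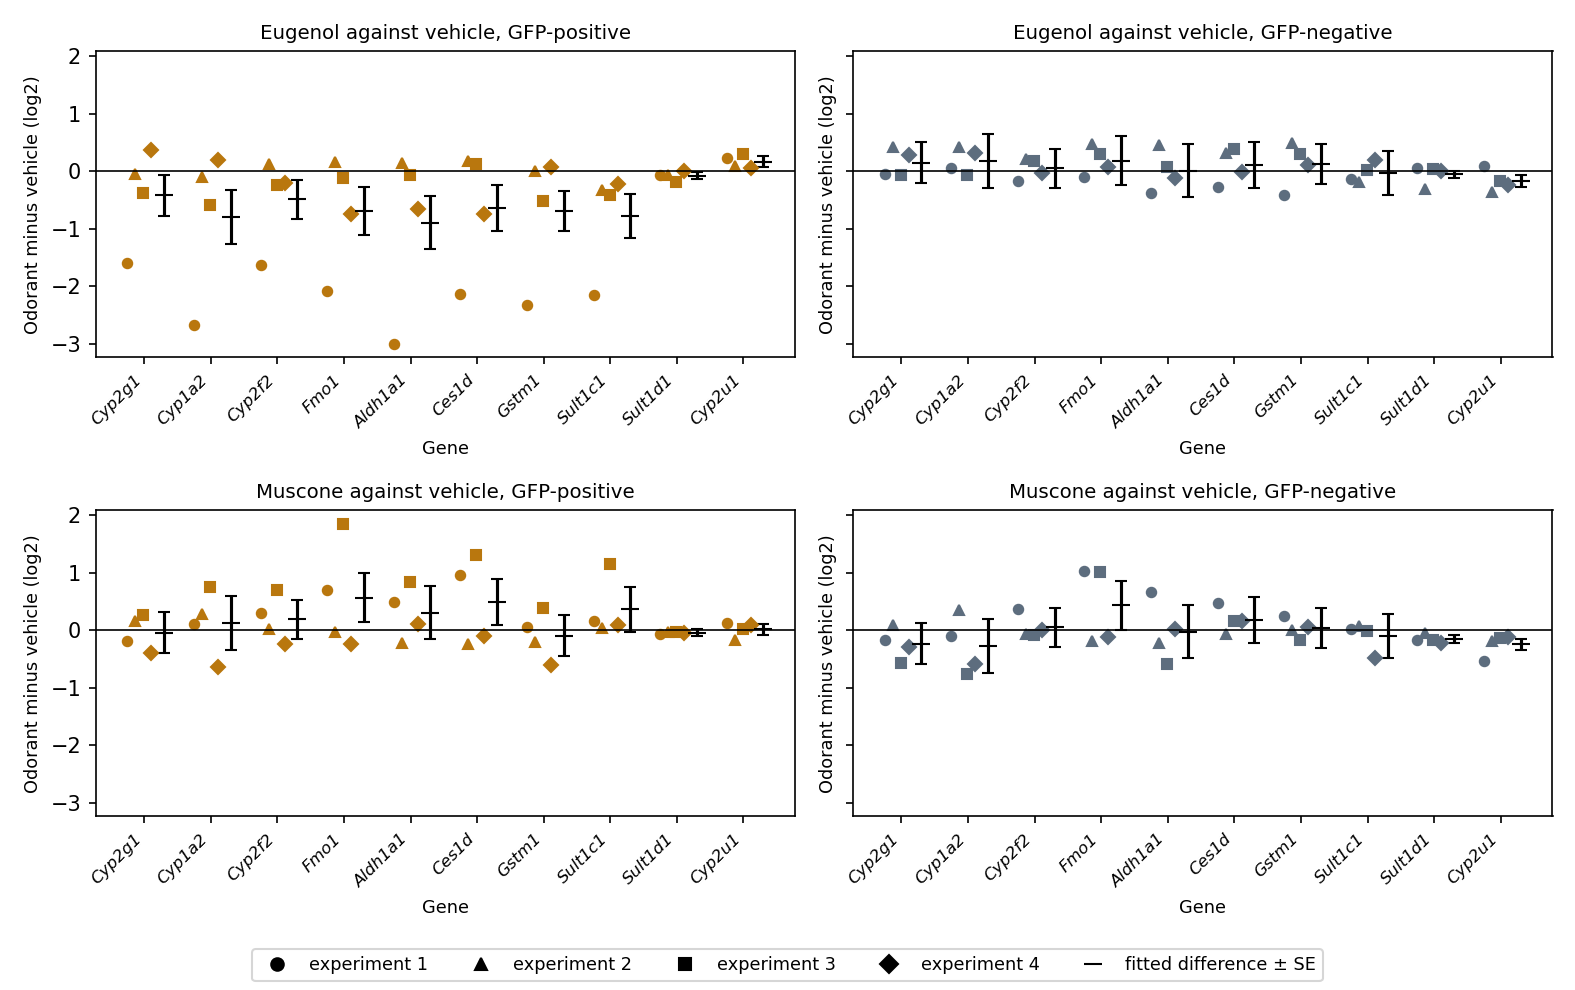
Odorant minus vehicle (vertical axis, log2) for 10 enzyme genes (horizontal axis) in each experiment (symbols) and in the fit (black bar with SE), for eugenol (top) and muscone (bottom) in GFP-positive (left) and GFP-negative (right) cells. In the eugenol panel of GFP-positive cells, experiment 1 lies lowest for Cyp2g1 to Sult1c1, down to −2.996 for Aldh1a1, and no gene in any panel passed the threshold.

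The change of the fraction difference with odorant was tested too, and again 0 enzyme genes passed. All genes called made up 0% for eugenol and 0.00502% for muscone, and 3 and 7 enzyme genes (1.92% and 4.49%) were at an unadjusted p under 0.05, beside 1.19% and 4.45% of all genes. Cyp2u1 had the smallest p for eugenol: its fraction difference was larger after eugenol in 4 of 4 experiments, by 0.13 to 0.46 (0.33 ± 0.14, adjusted p = 0.9999). Cyp4f15 (−0.92 ± 0.43), Cyp2c54 (−0.18 ± 0.09) and Sult1b1 (−1.15 ± 0.57) followed. For muscone the genes were Ces4a (−0.34 ± 0.12), Cyp4f40 (−0.32 ± 0.13), Ugt2b36 (−0.42 ± 0.18) and Cyp2e1 (−0.43 ± 0.19), all with an adjusted p of 0.985. By size, the largest changes were those of Cyp4a12b, −1.25 for eugenol and 0.85 for muscone. Set against each other, the eugenol and muscone effects differed past the threshold for 0 enzyme genes in GFP-positive cells (0.00502% of all genes; smallest adjusted p = 0.713) and 0 in GFP-negative cells (0% of all genes; 0.9996), with 14 and 4 enzyme genes (8.97% and 2.56%) at an unadjusted p under 0.05, beside 6.97% and 3.56% of all genes. Sult1b1 had the smallest p in GFP-positive cells, −1.46 with a 95% interval of −2.64 to −0.28, followed by Sult1a1 (−0.42), Ces4a (0.29) and Cyp2c65 (−0.55). In GFP-negative cells the genes were Cyp2e1 (−0.47), Ces2e (−0.32), Ugt2b36 (−0.44) and Cyp2j13 (−0.61). Ces2e, Cyp2c23 and Ces3a followed Ces4a in the vehicle comparison of the experiment sets, at −0.39, −0.49 and −0.48 (eugenol minus muscone experiments).

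Genes that supply or surround these enzymes were described by lists, under vehicle and beside the 45.1% higher and 21.9% lower of all genes. Of 7 P450 partners, 4 were higher and 1 lower (median 0.19), with the haem oxygenases Hmox1 (0.32 ± 0.08) and Hmox2 (0.32 ± 0.08) and the reductase Cyb5r1 (0.19 ± 0.05) first by p. Of 21 other oxidoreductases and hydrolases, 6 were higher and 5 lower (median −0.040); xanthine dehydrogenase, Xdh, was lower by 2.24 (−2.24 ± 0.22, adjusted p = 2.07e-08), and carbonyl reductase Cbr1 (0.50 ± 0.08) and paraoxonase Pon2 (0.42 ± 0.07) were higher. Of 9 other conjugating enzymes, 3 were higher and 5 lower (median −0.14), among them thiopurine methyltransferase Tpmt (−1.02 ± 0.10), microsomal transferase Mgst2 (−0.83 ± 0.14) and histamine methyltransferase Hnmt (−0.51 ± 0.12). Of 8 genes of cofactor supply, 2 were higher and 2 lower (median 0.054): the glutathione genes Gclc (−0.54 ± 0.06) and Gsr (−0.61 ± 0.09) were lower and Gss (0.30 ± 0.05) was higher. Of 13 xenobiotic receptors and partners, 10 were higher and 0 lower (median 0.26), led by Nfe2l2 (0.52 ± 0.07), which drives antioxidant response genes, Rxra (0.41 ± 0.06) and the aryl hydrocarbon receptor Ahr (0.27 ± 0.06). Of 12 transporters, 3 were higher and 4 lower (median −0.0019), with the efflux pumps Abcg2 (−1.02 ± 0.10) and Abcb1b (−0.69 ± 0.10) lower and Abcc1 (0.47 ± 0.07) higher. In these lists, too, differences between 0 and 0.40 turn negative with centring on mature neuron genes, those of Hmox1, Hmox2, Cyb5r1, Gss and Ahr among them.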

How the data were processed

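Signals of 35,556 probe sets on 32 arrays were used as the authors deposited them, as log2 intensities; the submitters' processing notes name Affymetrix Expression Console. Version, background correction and normalization were not given in the sources used here. Platform annotation gave 1 symbol for 21,789 probe sets, several for 1621 and none for 12,146; 21,698 matched the RefSeq gene table (GRCm38.p6), and 0 symbols changed. No 2 arrays were identical.

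All 32 arrays entered 1 limma fit (limma 3.58.1, R 4.3.3) of 8 group means plus a fixed block for experiment (18 residual degrees of freedom), with two-sided tests and Benjamini-Hochberg adjustment over 19,938 genes at 0.05. Deviations from group means correlated at 0.20 to 0.91 (median 0.66) in the 48 array pairs sharing an experiment number, all above 0.1, so the titles' numbers pair the arrays. The fit was tested on simulated data.

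Enzyme families and lists were chosen with earlier results of these data known, and the genes within families by symbol. Named were up to 12 of the largest called vehicle differences per direction of 1 sign in all 8 experiments (12 higher and 10 lower qualified), the 4 smallest p of each other comparison, a set list of mucosal enzymes, 3 genes per pathway list, and S100a5 and Omp; neighbour clusters and newly lower genes were named after their values were seen. Alternatives were no block, 3 other scalings, a filter on dim probe sets, means of probe sets, array weights, 16 arrays per fit and leaving out experiments.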

Additional observations from a re-analysis of the deposited data

Results flagged for a closer look

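Of 82 sets of differences over experiments, 5 held an experiment far from the others; chance alone is expected to mark about 1 in 20. Under vehicle, the Cyp2r1 difference between GFP-positive and GFP-negative cells was −0.25 in muscone experiment 3, against −1.45 to −0.89 in the other 7. The Gstt2 difference was −1.04 in the same experiment, against −0.60 to −0.34. Sult1c1 stood apart in 3 odorant comparisons. Eugenol minus vehicle in GFP-positive cells was −2.16 in eugenol experiment 1 and −0.41 to −0.22 in the other 3. Muscone minus vehicle in GFP-positive cells was 1.15 in muscone experiment 3 and 0.04 to 0.15 in the others. Muscone minus vehicle in GFP-negative cells was −0.48 in muscone experiment 4 and −0.0045 to 0.07 in the others. The causes were not tested.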

How the results depend on the processing

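Counts of enzyme genes called between GFP-positive and GFP-negative cells depended on the scaling and on the experiment block, and the causes were not tested. These settings also change the calls over all genes. A count without a share of all genes beside it is not a result about the enzymes. Without the block (no replicate block), the 58 higher and 26 lower genes under vehicle became 0 and 6, the 12 and 12 of the eugenol experiments 0 and 1, the 46 and 23 of the muscone experiments 0 and 4, the 23 and 34 after eugenol 0 and 6, and the 24 and 21 after muscone 0 and 4. Centring on mature neuron genes gave 1 and 73 under vehicle (beside 4.75% and 49.4% of all genes) and 0 higher in the eugenol experiments. It gave 0 and 106 in the muscone experiments, 1 higher after eugenol and 1 and 130 after muscone, and 15 genes differed between the experiment sets. From these and the following counts without a share, only the dependence on the setting can be read. With centring on the median of all probe sets, 39, 74, 52 and 56 enzyme genes were higher in the eugenol experiments, in the muscone experiments, after eugenol and after muscone. Quantile normalization gave 38 higher under vehicle (24.4%, beside 42.6% of all genes), and the filter on dim probe sets 31, with 27 in the muscone experiments. Array weights gave 24 higher in the eugenol experiments, 50 after eugenol, 41 and 34 after muscone, and 2 lower between the experiment sets.

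Leaving out 1 experiment at a time gave 38 to 58 higher and 21 to 35 lower under vehicle, 4 to 15 and 6 to 16 in the eugenol experiments, 25 to 63 and 18 to 34 in the muscone experiments, 15 to 28 and 22 to 38 after eugenol, and 16 to 31 and 15 to 35 after muscone. As above, these counts stand without a share of all genes and are not a result about the enzymes. Counts moved by over 1.5 times without muscone experiment 4 (38 higher under vehicle, 25 in the muscone experiments), muscone experiment 1 (30 higher there), eugenol experiment 1 (4 higher in the eugenol experiments), eugenol experiment 3 (7 lower there), eugenol experiment 4 (6 higher and 6 lower there, 15 and 22 after eugenol) and muscone experiment 3 (35 lower after muscone). An alternative without eugenol experiment 1 and muscone experiment 3 was chosen after seeing the data. It gave 40 lower under vehicle and 44 lower after muscone, beside 21.4% and 21.5% of all genes. In the eugenol experiments it gave 5 and 24, and in the muscone experiments 39 lower.

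Called genes that turned negative with centring on mature neuron genes were Cyp2d11 (−0.0105), Ces4a (−0.0265), Cyp2c54 (−0.079), Ugt2a3 (−0.092), Sult1d1 (−0.10), Sult4a1 (−0.11), Sult6b2 (−0.12) and Omp (−0.13), and of those not called Gstt1 (−0.24), Aldh1a2 (−0.40) and Aldh1a3 (−0.37). Cyp4f18, Sult1e1, Gstp1, Aldh9a1, Ces2g and Cyp2r1 were lower under every alternative that tested them (6.66% of all genes), and 0 enzyme genes were higher under every one (1.71%). S100a5 kept its call in 11 of 16 alternatives. Cyp2f2, Fmo1, Ugt8a and Gstm1 lost their call without some single experiments. For odorant effects, 0 enzyme genes passed under every alternative.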
